A study of Mus musculus with 16 samples.

Results

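The 7 bile duct marker genes Krt19, Krt7, Epcam, Cftr, Prom1, Sox9 and Spp1 were followed across 16 mouse liver transcriptomes from 4 diets. They were found by matching these symbols to the Ensembl identifiers of the deposited count table, and they are 7 of its 54752 genes. All 7 had enough reads to be among the 17833 genes tested. Each was also set against Umod and Kap, genes of the kidney tubule, in the same libraries.

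All animals were male F1 hybrids of C57BL6J and FVBN with the genotype Ercc1 d/-, written Ercc1Δ/− in the study's design, so the control group carried the same DNA repair defect as the others. The Ercc1 protein is part of a DNA repair nuclease, and mice of this genotype age early. The high-protein diet held 194% of the protein and 70% of the carbohydrate of the AIN93G reference pellets. The low-protein diet held 70% of the protein and 112% of the carbohydrate, and the low-fat diet held 70% of the fat and 112% of the carbohydrate. Control animals stayed on AIN93G. Each diet had 4 animals, which all ate AIN93G until 8 weeks of age and gave liver at 11 weeks. The RNA came from pieces of whole liver, with no enrichment of ducts in the labels. In such bulk samples, fewer cells of a type and less RNA per cell cannot be told apart. The labels do not say which animals shared a litter or a cage, and each p-value thus measures only how these samples spread.

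Cholangiocytes are the epithelial cells that line the bile ducts, where they modify bile by secreting chloride, bicarbonate and water. They are few beside hepatocytes, and they are recognised by simple-epithelium keratins, surface proteins such as Epcam, and the transcription factor Sox9, which also marks progenitor-like cells of the ducts. Most of these genes are not private to ducts: tubule epithelium of the kidney also makes Krt7, Epcam, Prom1, Cftr and Spp1. Krt19 and Sox9 are not taken here as absent from kidney, of which no library was compared. Umod (uromodulin, of the thick ascending limb) and Kap (kidney androgen-regulated protein, of the proximal tubule) are abundant in kidney and are not genes of hepatocytes or ducts.

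Library totals ran from 35243594 counts to 112789127 counts in low-fat 2, and the 10 hepatocyte markers summed to between 73960 and 144000 CPM (the usual depth-scaled counts, here with TMM factors). The summed level of 20 kidney genes ran from 39.0 to 1484 CPM in high-protein livers, 655.1 to 1212 CPM in low-protein livers, 1002 to 2794 CPM in low-fat livers and 120.3 to 4297 CPM in controls. High-protein 1 had the lowest sum and control 3 the highest. Control 4 stood apart in another way: the chi-square of its counts per degree of freedom was 549 to 666 against the other controls, which had 55.2 to 149 among themselves, and its TMM factor of 0.778 was the lowest of 16. Its summed hepatocyte (144000 CPM), liver endothelium (282.7 CPM) and Notch and YAP (365 CPM) lists were each the highest of 16. The results that rest on these 3 libraries are given below with and without them.

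Umod was at 0, 158.4, 48.0 and 100.3 CPM in high-protein livers 1 to 4, 159.9, 93.9, 77.5 and 61.3 CPM in low-protein livers, 112.6, 194.3, 332.3 and 286.8 CPM in low-fat livers, and 26.0, 12.8, 568.5 and 35.4 CPM in controls. Kap was at 0, 609.7, 180.7 and 416.8 CPM in high-protein livers, 429.1, 607.9, 225.9 and 317.7 CPM in low-protein livers, 377.9, 534.1, 1043 and 1002 CPM in low-fat livers, and 51.2, 38.8, 1531 and 136 CPM in controls. Control 3 had the most of both genes, and the other 3 controls had less than every low-protein and low-fat liver. High-protein 1 had no read of either gene, and a count of 0 allows up to 0.0637 CPM there. Its kidney sum came almost wholly from Slc13a3, a dicarboxylate carrier at 38.2 CPM in that library, which was detected in every liver at 20.3 CPM or more. Neither Umod nor Kap passed the test in any pair of diets (edgeR quasi-likelihood with Benjamini-Hochberg adjustment, adjusted p 0.612 or more for all 20 kidney genes).

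**Figure D1:**
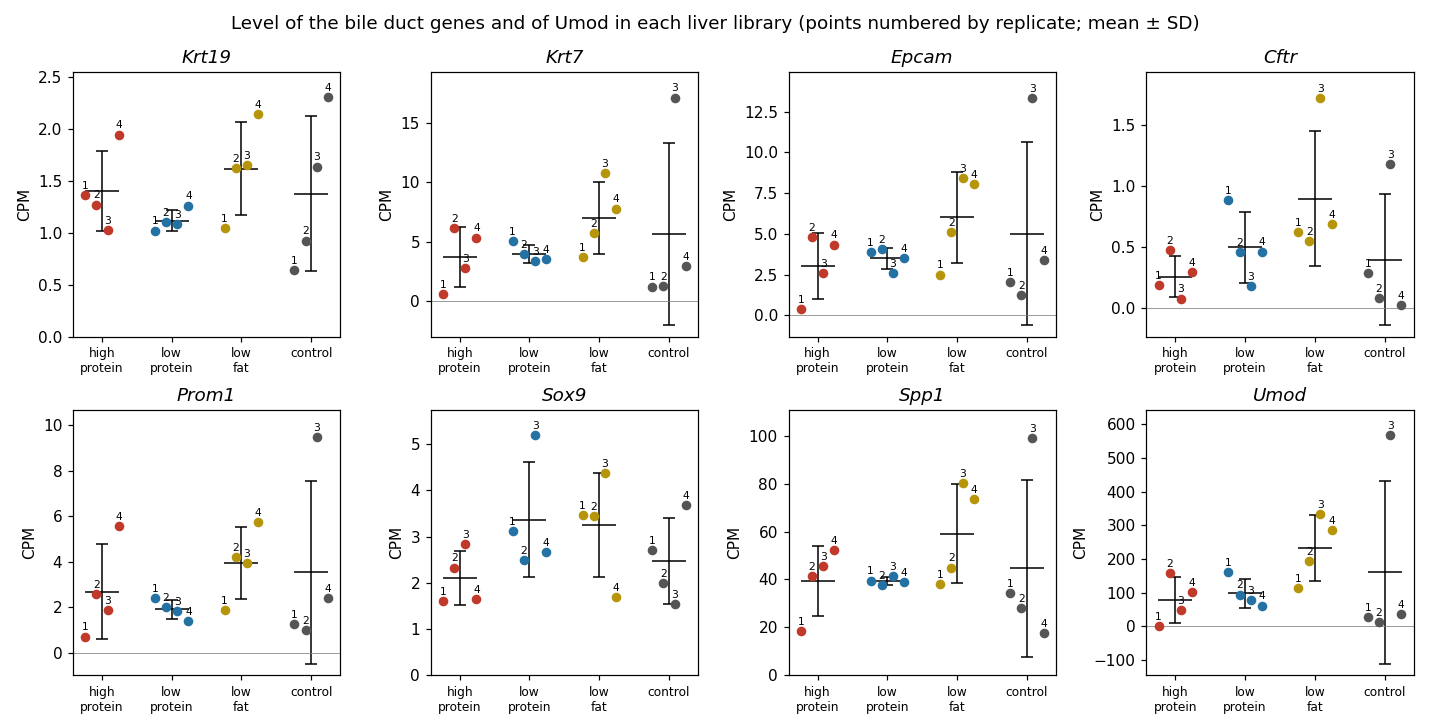
Level in CPM of the 7 bile duct genes and of Umod in each of 16 liver libraries, by diet. Points are libraries, numbered by replicate, and the bars give the mean and SD of 4 libraries (a bar below 0 only reflects the wide SD). Krt7, Epcam, Prom1 and Spp1 peak in control 3 as Umod does, while Krt19 and Sox9 do not.

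Krt7 and Krt19 are keratins of simple epithelia, and a pair of proteins by which ducts are usually stained in liver sections. Krt7 lies on the plus strand of chromosome 15 at 101411043 to 101430313 (GRCm38, as are all positions here), and Krt19 on the minus strand of chromosome 11 at 100140810 to 100148665. Krt7 was at 0.553, 6.11, 2.79 and 5.34 CPM in high-protein livers 1 to 4, 5.08, 3.97, 3.39 and 3.54 CPM in low-protein livers, 3.70, 5.74, 10.75 and 7.78 CPM in low-fat livers, and 1.22, 1.26, 17.1 and 2.98 CPM in controls. The lowest library was high-protein 1 and the highest control 3, the same libraries that had the least and the most Umod. Every pair of diets overlapped. Krt19 was at 1.36, 1.27, 1.03 and 1.94 CPM in high-protein livers, 1.02, 1.10, 1.09 and 1.26 CPM in low-protein livers, 1.04, 1.62, 1.65 and 2.14 CPM in low-fat livers, and 0.639, 0.925, 1.64 and 2.30 CPM in controls. Its highest library was control 4, high-protein 1 lay above 9 other libraries, and the diets overlapped. The ratio of control 3 to high-protein 1 was 31.0 for Krt7 and 1.2 for Krt19 in these 2 libraries. Over all 16 libraries Krt19 and Krt7 had Pearson's r 0.496 on log2 CPM.

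Epcam, a cell adhesion protein of epithelial surfaces (chromosome 17, plus strand, 87635979 to 87651129), was at 0.361, 4.82, 2.60 and 4.34 CPM in high-protein livers, 3.87, 4.06, 2.60 and 3.51 CPM in low-protein livers, 2.50, 5.09, 8.43 and 8.04 CPM in low-fat livers, and 2.03, 1.23, 13.3 and 3.41 CPM in controls. Prom1, a protein of membrane protrusions also known as CD133 (chromosome 5, minus strand, 43993620 to 44102032), was at 0.723, 2.59, 1.87 and 5.59 CPM in high-protein livers, 2.41, 2.01, 1.85 and 1.40 CPM in low-protein livers, 1.90, 4.22, 3.96 and 5.74 CPM in low-fat livers, and 1.28, 1.01, 9.49 and 2.39 CPM in controls. For both genes high-protein 1 was the lowest of 16 libraries and control 3 the highest, and each pair of diets overlapped. Control 3 had 36.8 times the Epcam level and 13.1 times the Prom1 level of high-protein 1.

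Cftr, the chloride channel through which ducts secrete into bile (chromosome 6, plus strand, 18170687 to 18322768), was the least expressed of the 7, with 1 to 74 reads in a library. It was at 0.191, 0.476, 0.0812 and 0.297 CPM in high-protein livers, 0.890, 0.463, 0.181 and 0.466 CPM in low-protein livers, 0.626, 0.552, 1.72 and 0.688 CPM in low-fat livers, and 0.290, 0.0841, 1.18 and 0.0307 CPM in controls. All 4 high-protein livers lay below all 4 low-fat livers. This was the only pair of diets that did not overlap for any of the 7 genes, and 8.22% of all tested genes did not overlap in the same comparison. In the other pairs, where 0 of 7 stood apart, the share of all tested genes was 1.96% between high protein and control, 2.48% between low protein and control, 2.59% between low fat and control, 6.61% between high and low protein and 4.49% between low fat and low protein. Low-fat 3 had the highest Cftr level, above control 3.

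Sox9, the transcription factor of duct and progenitor-like cells (chromosome 11, plus strand, 112782224 to 112787760), was at 1.59, 2.33, 2.84 and 1.65 CPM in high-protein livers, 3.11, 2.49, 5.20 and 2.66 CPM in low-protein livers, 3.47, 3.45, 4.38 and 1.69 CPM in low-fat livers, and 2.7, 1.99, 1.54 and 3.68 CPM in controls. Control 3, with the most kidney transcripts, had the lowest Sox9 level of all 16 libraries, and its ratio to high-protein 1 was 0.967. The highest level was in low-protein 3, and the diets overlapped.

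Spp1 encodes osteopontin, a secreted phosphoprotein that ducts and macrophages make (chromosome 5, plus strand, 104435118 to 104441050). It was at 18.6, 41.3, 45.5 and 52.1 CPM in high-protein livers, 39.5, 37.5, 41.4 and 38.9 CPM in low-protein livers, 38.0, 45.0, 80.2 and 73.5 CPM in low-fat livers, and 34.1, 27.9, 99.25 and 17.5 CPM in controls. Control 3 was again the highest, while control 4 was slightly below high-protein 1 at the low end. The low-protein livers lay within 1.1 times of each other, and every pair of diets overlapped.

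Per kilobase of summed exon length, Spp1 was by far the most abundant of the 7, with a mean over 16 libraries of 27.7 ± 13.2 CPM per kb (SD, n = 16). Epcam followed at 2.00 ± 1.46 CPM per kb, then Krt19 at 0.742 ± 0.251, Krt7 at 0.721 ± 0.583, Sox9 at 0.677 ± 0.254 and Prom1 at 0.422 ± 0.320 CPM per kb. Cftr was last at 0.0662 ± 0.0578 CPM per kb. Mean ± SD overlapped among Krt19, Krt7, Sox9 and Prom1, and their levels were not tested against each other within libraries. Umod and Kap, at 51.3 ± 53.6 and 663.1 ± 595 CPM per kb, exceeded all 7 on average in these liver samples. The coefficient of variation separated the genes in another order: it was 33.9% for Krt19 and 37.6% for Sox9, 47.7% for Spp1, and between 73% and 87.3% for Epcam, Prom1, Krt7 and Cftr.

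The high-protein diet against control asks whether the bile duct genes differ with a protein-rich, carbohydrate-poor diet. None of the 7 passed the test, and neither did any of 17833 genes (0% called by edgeR's quasi-likelihood test, Benjamini-Hochberg adjusted p under 0.05). An unadjusted p under 0.05 was found for 1109 genes (6.22%) and 0 of the 7, and DESeq2 called 1 gene, not one of the 7. Krt7 averaged 3.70 ± 2.53 CPM in high-protein livers and 5.64 ± 7.69 CPM in controls (SD, n = 4 each), a log2 fold change of -0.62 with a standard error (SE) of 0.76. Epcam averaged 3.03 ± 2.02 CPM in high-protein livers and 5.00 ± 5.61 CPM in controls, with a log2 fold change of -0.73 (SE 0.71, adjusted p 0.805). Krt19 had the smallest difference, 1.40 ± 0.39 CPM in high-protein livers and 1.38 ± 0.75 CPM in controls. Of the 7, 1 had a fold change above 0 and the median log2 fold change was -0.41, against 41.7% of all tested genes above 0 and a median of -0.06. The kidney genes had a median of -0.90 in the same comparison, with 0 of 20 above 0.

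The low-protein diet against control again gave 0 of 7 genes called, beside 0% of all tested genes (edgeR, adjusted p under 0.05). An unadjusted p under 0.05 was found for 1262 genes (7.08%) and 0 of the 7. DESeq2 called 10 genes, none of the 7. Prom1 averaged 1.92 ± 0.42 CPM in low-protein livers and 3.54 ± 4.01 CPM in controls, a log2 fold change of -0.90 (SE 0.66, edgeR adjusted p 0.73). Sox9 averaged 3.37 ± 1.25 CPM in low-protein livers and 2.48 ± 0.93 CPM in controls, a log2 fold change of 0.45 (SE 0.34). Spp1 averaged 39.3 ± 1.59 CPM in low-protein livers and 44.7 ± 37.0 CPM in controls, where the spread came from control 3. Fold changes were above 0 for 2 of the 7, beside 45.6% of all tested genes, and for 0 of the 20 kidney genes.

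Low-fat livers had point estimates above control for all 7 genes, yet none passed the test (edgeR, 0% of all tested genes called). There were 1644 genes (9.22%) and 0 of the 7 at an unadjusted p under 0.05, and DESeq2 called 4 genes, none of the 7. Cftr averaged 0.897 ± 0.553 CPM in low-fat livers and 0.397 ± 0.536 CPM in controls, a log2 fold change of 1.10 (SE 0.79, 95% interval from -0.57 to 2.78, adjusted p 0.65). Spp1 averaged 59.2 ± 20.8 CPM in low-fat livers and 44.7 ± 37.0 CPM in controls, a log2 fold change of 0.40 (SE 0.44). The median of the 7 was 0.30 and that of all tested genes -0.02, of which 47.6% were above 0. All 20 kidney genes also had fold changes above 0, with a median of 0.60.

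Between the diets, the contrast of high protein with low fat had the 7 genes all below 0, with a median log2 fold change of -0.63, beside 47% of all tested genes above 0. Cftr, at 0.261 ± 0.168 CPM in high-protein livers and 0.897 ± 0.553 CPM in low-fat livers, had a log2 fold change of -1.77 (SE 0.82, 95% interval from -3.51 to -0.02). In the fit with diet alone over 16 libraries, Cftr was the only one of the 7 with an unadjusted p under 0.05 in any comparison of diets. Its edgeR adjusted p was 0.543, so 0 of 7 were called beside 0% of all tested genes. An unadjusted p under 0.05 was found for 1620 genes (9.08%), and DESeq2 called 81, none of the 7. All 20 kidney genes were below 0 in the same contrast, with a median of -1.5.

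High protein against low protein gave 0 of 7 (0% of all tested genes, edgeR), beside 922 genes (5.17%) with an unadjusted p under 0.05 and 23 genes called by DESeq2, none of the 7. Sox9 had the widest gap in relation to its error there, with 2.10 ± 0.60 CPM in high-protein livers and 3.37 ± 1.25 CPM in low-protein livers and a log2 fold change of -0.68 (SE 0.35, adjusted p 0.96). Low fat against low protein gave 0 of 7 as well (0% of all tested genes, edgeR), beside 425 genes (2.38%) with an unadjusted p under 0.05 and 0 called by DESeq2. There 6 of 7 point estimates were above 0 with a median of 0.78, beside 50.4% of all tested genes above 0, and all 20 kidney genes above 0 with a median of 1.18. Testing the 3 diets together against control called 0 of 7 and 0% of all tested genes in edgeR, where 1175 genes (6.59%) and 0 of the 7 had an unadjusted p under 0.05. DESeq2 called 67 genes in that joint test, none of the 7. These comparisons share groups, so their values are not independent of each other. Without control 4, the library with the most Krt19, log2 fold changes against control were 0.37 on high protein, 0.0377 on low protein and 0.56 on low fat for Krt19, and 0.013, 0.68 and 0.62 in the same order for Sox9. None of these was called (edgeR adjusted p 0.728 or more).

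**Figure D2:**
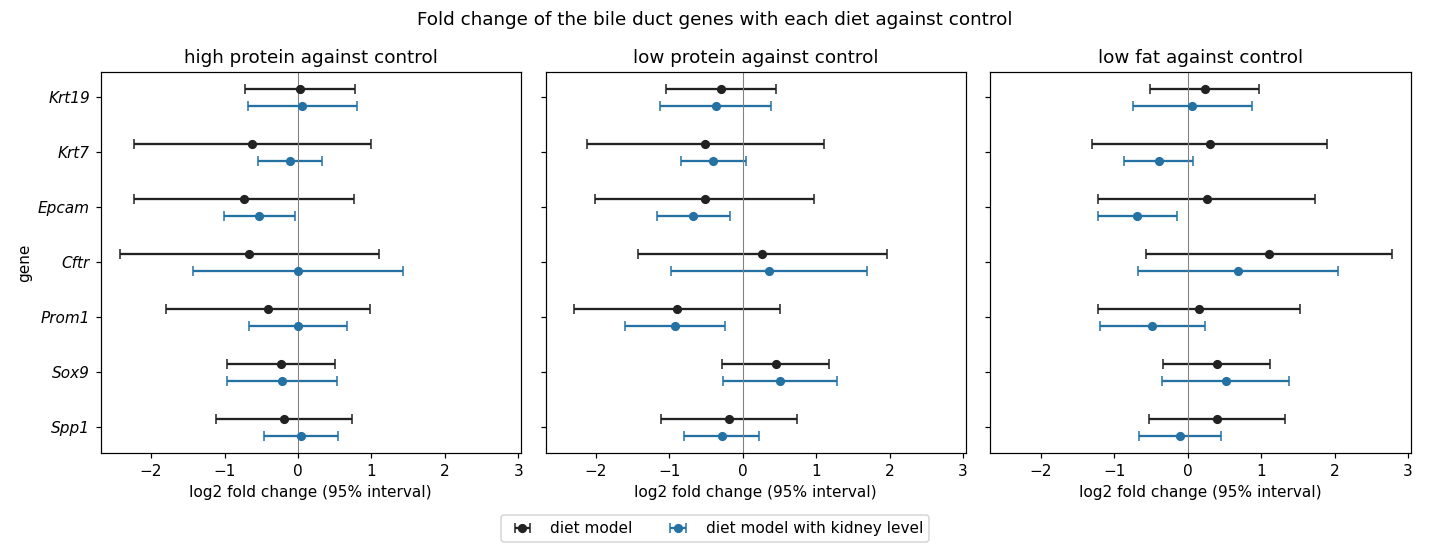
Log2 fold change of each bile duct gene against control with its 95% interval on 3 diets. Black is the fit with diet alone and blue the fit that also holds the kidney level; the intervals of Krt7, Epcam, Prom1 and Spp1 narrow in blue, while those of Krt19 and Sox9 hardly move.

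In a fit with diet and the log2 of the summed kidney genes of each library, Krt7, Epcam, Prom1 and Spp1 rose with the kidney level within diets, and Cftr, Krt19 and Sox9 did not pass the test. These are 4 of 7 genes called, all higher, beside 5.7% of all tested genes called (1016 of 17833) with 5.64% called higher and 0.0561% lower. For each doubling of the kidney level, Krt7 rose by a log2 change of 0.70 (SE 0.05, edgeR adjusted p 1.01e-07), Epcam by 0.67 (SE 0.06, adjusted p 8.05e-07), Prom1 by 0.55 (SE 0.07, adjusted p 1.01e-04) and Spp1 by 0.34 (SE 0.05, adjusted p 6.71e-04). Cftr had a coefficient of 0.48 (SE 0.14), with an edgeR adjusted p of 0.0518, and it was past the threshold in limma-voom with quality weights (0.59, adjusted p 0.0101). Krt19 had 0.09 (SE 0.08, 95% interval from -0.09 to 0.26, adjusted p 0.858) and Sox9 had -0.05 (SE 0.09, 95% interval from -0.25 to 0.14, adjusted p 0.927). Umod and Kap, which are in the kidney sum, had coefficients of 1.30 and 1.37. Slc13a3, also in the sum and present in every liver, had 0.30. A doubling of the sum is thus not the same doubling of each kidney gene.

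**Figure D3:**
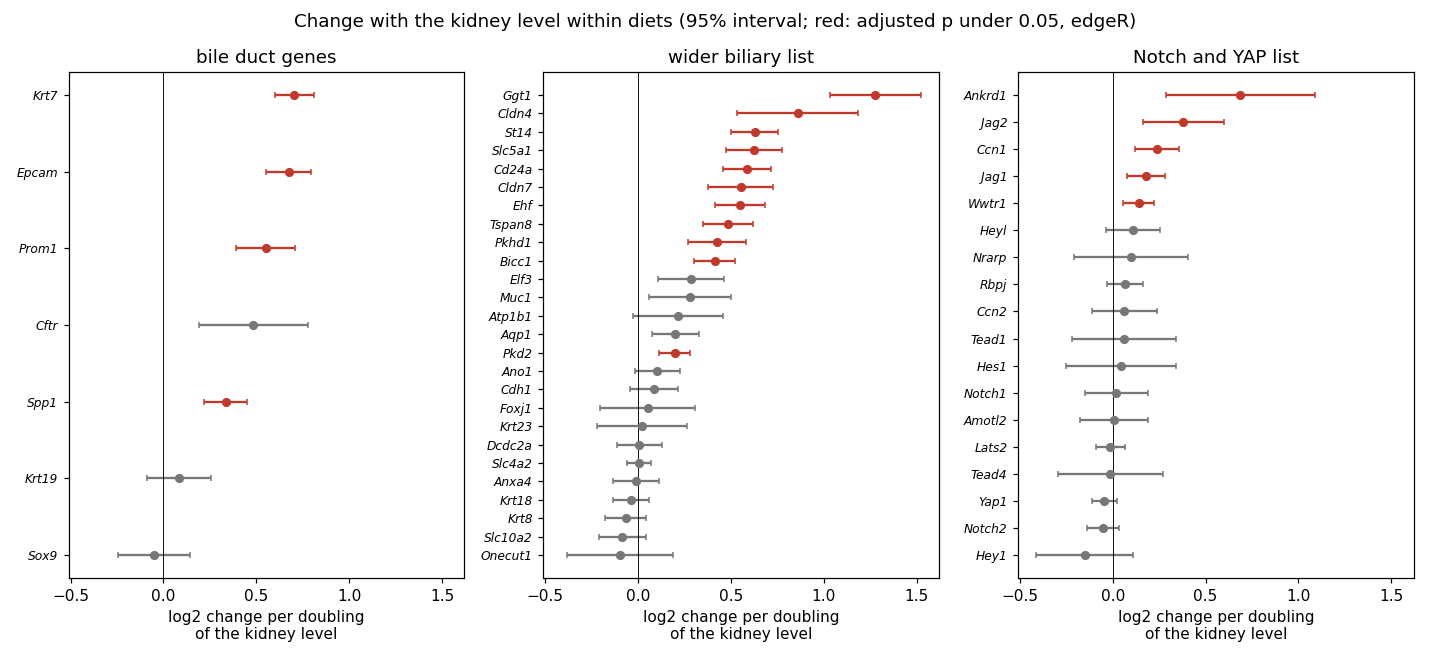
Log2 change per doubling of the kidney level within diets, with 95% intervals, for the 7 bile duct genes, 26 genes of a wider biliary list and 18 Notch and YAP genes. Red marks an edgeR adjusted p under 0.05: 4 of 7, 11 of 26 and 5 of 18, all above 0.

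The call for Krt7 and Epcam did not rest on the extreme libraries. Without control 3 and high-protein 1, 2 of 7 genes were called beside 1.57% of all tested genes: Krt7 at 0.75 (SE 0.14, edgeR adjusted p 0.0174) and Epcam at 0.82 (SE 0.14, adjusted p 0.00803). Prom1 had 0.64 (SE 0.24, adjusted p 0.357) and Spp1 had 0.16 (SE 0.16, adjusted p 0.832) in those 14 libraries. Krt19, at 0.09 over 16 libraries, had 0.39 in those 14 (SE 0.24, edgeR adjusted p 0.685), above the value of Spp1. Sox9 had -0.09 there (SE 0.22, adjusted p 0.932). Cftr had 0.97 (SE 0.38, adjusted p 0.395) there and 0.31 (SE 0.20, adjusted p 0.9998) without control 3 alone. Without control 3 alone, Prom1 kept an adjusted p of 0.0202 and Spp1 had one of 0.225, beside 2.53% of all tested genes called.

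On the linear scale, Krt7 followed Umod almost as a straight line. By least squares over 16 libraries, as a description, Krt7 had 1.2 CPM (SE 0.259) where Umod is 0 and 2.74 CPM more (SE 0.129) for each 100 CPM of Umod, and the line took up 97% of the variance. Epcam had 1.4 CPM (SE 0.263) at 0 Umod and 2.11 CPM more per 100 CPM, with 94.9% of the variance. Without control 3 the slope per 100 CPM was 2.62 CPM for Krt7 and 2.13 CPM for Epcam, with 92.7% and 88.6% of the variance in that order.

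Spp1 had 26.2 CPM (SE 2.92) where Umod is 0 and 13.7 CPM more (SE 1.45) per 100 CPM of Umod, with 86.4% of the variance. Prom1 had 1.08 CPM (SE 0.386) at 0 Umod and 1.38 CPM more per 100 CPM, with 78.7%, which was 53.8% without control 3. Cftr had 0.168 CPM (SE 0.0968) at 0 Umod and 0.244 CPM more per 100 CPM, with 64.9%, but 0.0497 CPM (SE 0.0935) and 0.37 CPM more without control 3. Over 16 libraries the value at 0 Umod exceeded its SE for each of these 5 genes, as it did not for Cftr without control 3, and for Spp1 it stood beside a 16-library mean of 45.6 CPM. Krt19 had 1.21 CPM (SE 0.157) at 0 Umod, next to a mean of 1.38 CPM, with 14% of the variance. Sox9 had 2.92 CPM (SE 0.38) at 0 Umod and a mean of 2.80 CPM, with 1.4%. High-protein 1, which had no Umod read, held 0.553 CPM of Krt7, 0.361 CPM of Epcam, 0.191 CPM of Cftr, 0.723 CPM of Prom1 and 18.6 CPM of Spp1, beside 1.36 CPM of Krt19 and 1.59 CPM of Sox9.

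**Figure D4:**
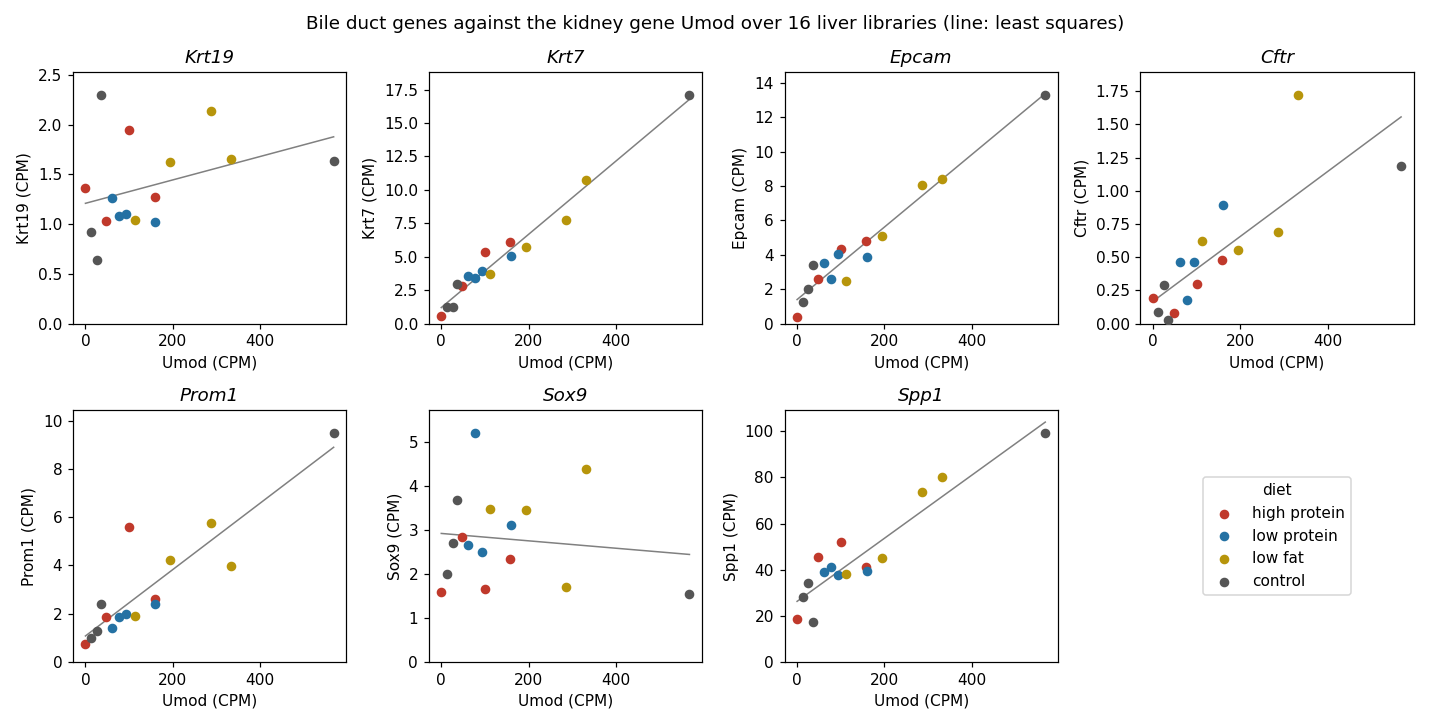
Level of each bile duct gene against Umod, both in CPM, in 16 liver libraries coloured by diet, with the least-squares line. Krt7 and Epcam lie close to their lines (97% and 94.9% of the variance), Cftr and Prom1 scatter more, and Krt19 and Sox9 show no slope beyond 14% and 1.4% of the variance.

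Over the 16 libraries, log2 CPM of Krt7 correlated with the kidney score at Pearson's r 0.972 and Spearman's rho 0.971 (n = 16, permutation test with 1e+05 resamples, two-sided, p 1e-05 for both, the smallest these permutations can give, adjusted p 3.5e-05 and 4.2e-05 over 21 relations). Epcam had r 0.949 and rho 0.932 with the same p-values. Spp1 had r 0.856 (permutation p 3e-05, adjusted 7.87e-05) and rho 0.759 (p 0.00096, adjusted 0.00144), Prom1 r 0.848 (p 3e-05, adjusted 7.87e-05) and rho 0.859 (p 4e-05, adjusted 9.33e-05), and Cftr r 0.752 (p 0.00087, adjusted 0.00141) and rho 0.856 (p 8e-05, adjusted 0.000153). Without high-protein 1 and control 2, the libraries farthest from the median score, r was 0.946 for Krt7, 0.887 for Epcam, 0.824 for Spp1, 0.817 for Cftr and 0.761 for Prom1. Krt19 had r 0.357 (permutation p 0.174, adjusted 0.228) and rho 0.438 (p 0.091, adjusted 0.112), and 0.414 without those libraries. Sox9 had r 0.113 (permutation p 0.677, adjusted 0.677) and rho -0.0176 (p 0.95, adjusted 0.95), and -0.343 without them. With Umod alone and with Kap alone, Krt7, Epcam, Prom1 and Spp1 had r between 0.694 and 0.925 (permutation, adjusted p 0.000717 or less). Cftr had r 0.521 with Umod (permutation p 0.0344, adjusted 0.0515) and 0.468 with Kap (p 0.0679, adjusted 0.0951), which did not pass, while its rho passed with both (permutation, adjusted p 7.87e-05 with Umod and 0.000245 with Kap). Krt19 and Sox9 had r between 0.199 and 0.27 with these genes (permutation, adjusted p 0.403 or more). The rho of Krt19 was 0.418 with Umod and 0.447 with Kap (permutation, adjusted p 0.127 and 0.112). Without high-protein 1 and control 2 its r was 0.439 and 0.518 in the same order (permutation, adjusted p 0.144 and 0.0751), while that of Sox9 was -0.304 and -0.357. Among themselves, Krt7, Epcam, Prom1 and Spp1 had r between 0.79 and 0.964, Cftr had r between 0.541 and 0.737 with these 4, Krt19 had r 0.637 with Prom1, 0.496 with Krt7, 0.447 with Epcam, 0.222 with Spp1 and 0.106 with Cftr, and Sox9 had r between -0.175 and 0.0833 with the other 6 genes.

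The genes most like each marker in pattern were taken as the 3 highest Pearson r over the 16 libraries among 13521 tested genes with a mean of at least 1 CPM. For Krt7 these were Dmtn (r 0.988), Sh3gl2 (0.986) and Hoxb8 (0.985), and for Epcam Hoxd9 (0.984), Efhd1 (0.981) and Plau (0.981). Hoxb8 and Hoxd9 are homeobox genes of the posterior body axis. For Prom1 they were Fhod3 (0.972), Hao2 (0.941) and Gnai1 (0.938), for Spp1 Kctd1 (0.963), Lrrc1 (0.956) and Pepd (0.948), and for Cftr Adra2b (0.914), Pdzk1 (0.91) and Myo5b (0.904). Krt19 was nearest to Tagln2 (0.902), Aldoa (0.897) and Pecam1 (0.892), the last an endothelial adhesion gene, and Sox9 to Rhou (0.909), Esrp2 (0.893), a splicing regulator of epithelia, and AI661453 (0.864). No gene was in the sets of 2 markers.

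Adding the kidney level to the diet fit left 0 of 7 genes called in each of the 6 comparisons of diets, beside 0% of all tested genes (edgeR). Between 500 and 1236 of 17833 genes had an unadjusted p under 0.05. Among the 7, Epcam did so against control on high protein (unadjusted edgeR p 0.0337), low protein (0.0107) and low fat (0.0166). The counts over all tested genes were 1122, 1077 and 983 in that order, and the same controls enter each comparison. Prom1 had such a p for low protein against control (edgeR, 0.0106) and for high protein against low protein (0.0116, beside 922 genes). The added kidney level narrowed the errors most for the genes that follow the kidney: the SE of the Krt7 fold change of low fat against control was 0.22 with the kidney level and 0.75 without it. The log2 fold change itself was -0.40 with the kidney level and 0.30 without it for Krt7, -0.68 and 0.26 for Epcam, -0.48 and 0.15 for Prom1, and -0.10 and 0.40 for Spp1. The sign of these low-fat estimates thus turned. Krt19 had 0.06 and 0.23, and Sox9 had 0.52 and 0.39, on the same side of 0. Epcam was below control on all 3 diets in that fit, with log2 fold changes of -0.53 (high protein, edgeR adjusted p 0.748), -0.67 (low protein, adjusted p 0.751) and -0.68 (low fat, adjusted p 0.818), none of them called. Prom1 had a log2 fold change of 0.93 (SE 0.32, adjusted p 0.944) for high protein against low protein and -0.93 (SE 0.32, adjusted p 0.751) for low protein against control.

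Leaving out control 3 and high-protein 1 turned the low-fat comparison into one with calls, 571 of 17871 genes (3.2%) in edgeR. Krt7 and Spp1 were among them, 2 of 7, with log2 fold changes of low fat over control of 1.94 (SE 0.42, adjusted p 0.0210) and 1.16 (SE 0.26, adjusted p 0.0287). The other 3 controls had 1.22, 1.26 and 2.98 CPM of Krt7 and Umod between 12.8 and 35.4 CPM, against Umod of 112.6 CPM or more in the low-fat livers. With the kidney level in the same 14-library fit, no gene was called (0% of 17871): Krt7 had -0.54 (SE 0.52, adjusted p 0.66) and Spp1 0.58 (SE 0.62, adjusted p 0.693). Diet and kidney level largely coincide among these low-fat and control livers, so their parts cannot be told apart there. High protein against control had 1.39 for Krt7, 0.82 for Epcam, 1.10 for Prom1 and 0.80 for Spp1 without both libraries, each opposite in sign to the value over 16 libraries and none called (adjusted p 0.301 to 0.464).

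A wider list of 30 biliary genes, 28 of them tested, held genes called with the kidney level and genes not called with it. In each diet comparison 0 of 28 passed the test. With the kidney level, 13 of 28 rose and none fell, beside 5.64% of all tested genes called higher, with a median coefficient of 0.25 against -0.01 for all tested genes. These calls were over all 16 libraries. The list was not read without control 3, where 2.53% of all tested genes were called with the kidney level. Among the 13 were Ggt1 (1.28), Cldn4 (0.86), St14 (0.63), Slc5a1 (0.62), Cd24a (0.59), Cldn7 (0.55), Ehf (0.55), Tspan8 (0.48), Pkhd1 (0.43), Bicc1 (0.41) and Pkd2 (0.20). Ggt1, a brush-border enzyme, was at 0.0213 CPM in high-protein 1 and 182.9 CPM in control 3. Pkhd1 and Pkd2, genes of the primary cilium, belong to both duct and tubule epithelium. Krt8 (-0.07), Krt18 (-0.04), Anxa4 (-0.01), the anion exchanger Slc4a2 (0.00) and Krt23 (0.02) were not called, and Krt8 and Krt18 are also keratins of hepatocytes. Other genes that were not called had larger coefficients above 0. They include Elf3 (0.28, edgeR adjusted p 0.0633), Muc1 (0.28, adjusted p 0.199), Atp1b1 (0.22, adjusted p 0.537) and Aqp1 (0.20, adjusted p 0.0601). Sctr, the secretin receptor that is typical of ducts, was at 0 in 8 libraries and at most 0.0882 CPM, and the bile acid receptor Gpbar1 was at 0 in 6. The smallest unadjusted p-values for diet in the list were those of Slc10a2, the bile acid carrier of duct cells (high protein against low fat, log2 fold change -0.83, SE 0.26, edgeR adjusted p 0.425), and of the transcription factor Onecut1 (low protein against control, -1.82, SE 0.57, adjusted p 0.682).

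Notch and YAP signalling direct the formation of ducts. Of 18 genes of these pathways, all tested, 0 passed the test in any diet comparison. With the kidney level 5 of 18 rose and none fell, beside 5.64% of all tested genes called higher, with a median coefficient of 0.06 against -0.01 for all tested genes. They were the YAP targets Ankrd1 (0.69) and Ccn1 (0.24), the ligands Jag2 (0.38) and Jag1 (0.18), and the coactivator Wwtr1 (0.14, edgeR adjusted p 0.0498). These calls were over all 16 libraries, and the list was not read without control 3. That library had the highest level of Jag1 (6.75 CPM) and Wwtr1 (23.55 CPM), while Ankrd1, Ccn1 and Jag2 peaked elsewhere. The receptors Notch1 and Notch2, the targets Hes1 and Hey1 and Yap1 itself were not called. By unadjusted p, the foremost diet values were those of Ccn1 and Ccn2, both secreted YAP targets, in high protein against low protein, with log2 fold changes of -1.27 (SE 0.36, adjusted p 0.892) and 1.12 (SE 0.35, adjusted p 0.921).

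Markers of other tissues near the liver were checked in the same fit. Of 12 pancreatic genes, Cela3b, Pnlip, Clps and Zg16 were at 0 in all 16 libraries, and among 10 intestinal genes Cdx1 and Agr2 were at 0 in all. The summed pancreatic list ran from 22.3 to 44.5 CPM in high-protein livers, 34.7 to 47.0 CPM in low-protein livers, 38.3 to 43.5 CPM in low-fat livers and 8.93 to 50.8 CPM in controls, nearly all of it Cela1. With the kidney level, 0 of 2 tested pancreatic genes, 1 of 4 intestinal genes (Vil1, 0.91, a brush-border gene that kidney tubules share) and 1 of 7 mesothelial genes (Gpm6a, 0.58) were called. Vil1 (32.75 CPM) and Gpm6a (23.61 CPM) were each highest in control 3, and these lists were not read without it. No macrophage, Kupffer, stellate, hepatocyte or endothelial marker was called with the kidney level. The share of all tested genes called was 5.7%, at which lists this short would hold few calls. Of 10 stellate and fibroblast markers, 2 had an unadjusted p under 0.05, beside 11.6% of all tested genes. These were Acta2 (0.20, edgeR adjusted p 0.236) and Pdgfrb (0.08, adjusted p 0.226). The part that kidney transcripts have in the levels of Krt7, Epcam, Prom1, Spp1 and Cftr was measured here only through their shared variation, and no library of kidney was compared.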

How the data were processed

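The deposited table holds raw counts of reads for each gene in the 16 liver libraries, with positions and summed exon lengths per the file headers. The submitters' processing notes name GRCm38.p6 as the build and list edgeR 3.32.1, Subread 1.6.4, featureCounts, STAR 2.7.0f and Trimmomatic 0.39. Neither the strand setting nor the annotation release is stated there, so overlapping and antisense genes cannot be told apart. Symbols came from GENCODE M21: 53861 of 54752 identifiers matched with their version, all at the same positions, and 862 matched without it.

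The main test was the quasi-likelihood test of edgeR 4.0.16 under R 4.3.3, on the 17833 genes kept by filterByExpr, with TMM scaling and a mean for each of the 4 groups (16 libraries, 12 residual degrees of freedom). Tests were two-sided, with Benjamini-Hochberg adjustment over all genes tested at 0.05. CPM use TMM-scaled totals, and log2 CPM a prior count of 2. The kidney score is log2 of 1 plus the summed CPM of 20 kidney genes (here over unscaled library totals), added to the group model to test its coefficient. Correlations used scipy 1.17.1.

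Groups came from sample titles. The shared replicate numbers were not treated as pairs. The 7 genes and all lists were chosen with earlier results of these data known. The genes named are the 7, Umod, Kap, up to 2 genes with the smallest p of each other list, the members of the wider biliary, Notch and YAP, intestinal and mesothelial lists that were called, and the 3 nearest in pattern. Some genes that this rule names are not reported here. Other biliary, Notch and YAP, pancreatic and intestinal genes were named after their values were seen. The steps were tested on simulated data. Alternatives were RLE factors, no low-count filter, DESeq2 1.42.0, limma-voom 3.58.1 with quality weights, a replicate block, the compared groups alone, Umod or Kap alone, no group term, and leaving out libraries. Count totals limit Cftr most, at 1 to 74 reads. The spread between replicates was above counting noise for every pair of libraries of a diet, so each library counts as 1 sample.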

Additional observations from a re-analysis of the deposited data

Results flagged for a closer look

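Of 28 groups of 4 libraries (7 genes by 4 diets), 3 had a library set far from the other 3. Chance would flag about 1 in 20 groups. Krt7 in control 3 was at 17.11 CPM, and the gap to the next control took up 0.889 of the range of the group. Prom1 in control 3 was at 9.493 CPM, with a gap of 0.837 of the range. Control 3 also had the most Umod and Kap, and the part of this in both values was not tested. Cftr in low-fat 3 was at 1.723 CPM, with a gap of 0.884 of the range, and that library had the most Umod among the low-fat livers, 332.3 CPM.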

How the results depend on the processing

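RLE factors and no low-count filter changed no call of the 7 genes and no direction. The other settings kept every diet comparison without a call among the 7, with 1 exception given below. Where edgeR called 0, DESeq2 called 67 genes for any diet. Against control it called 1 gene on the high-protein diet, 10 on the low-protein diet and 4 on the low-fat diet. It called 81 in the contrast of high protein with low fat and 23 in that of high with low protein. The compared groups alone gave 16 genes and limma-voom with quality weights 1 gene for high protein against low fat. The kidney level called 550 genes with Umod alone and 475 with Kap alone, where the sum called 1016. Spp1 was then 0.14 with Kap alone (adjusted p 0.0831), and Sox9 was 0.0148 with Umod and 0.0117 with Kap alone, and 0.0484 with no group term. Cftr passed with no group term (0.56, adjusted p 0.0041).

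Leaving out control 3 and high-protein 1, a setting chosen after seeing the data, gave 138 genes for any diet, 571 genes and 2 of the 7 for low fat against control, and 281 genes and 2 of the 7 for the kidney level. Log2 fold changes of high protein against control were then 1.06 for Cftr, 0.82 for Epcam, 1.39 for Krt7, 1.10 for Prom1 and 0.80 for Spp1, and of low protein against control 0.66 for Epcam, 1.14 for Krt7, 0.30 for Prom1 and 0.57 for Spp1. With the kidney level in that fit, also chosen after seeing the data, low fat against control was -0.56 for Cftr, -1.28 for Epcam, -0.94 for Krt19, -0.54 for Krt7 and -0.75 for Prom1, low protein against control was -0.41 for Cftr and 0.19 for Spp1, and high protein against control was -0.66 for Krt19 and 0.45 for Spp1. With the kidney level and all libraries, low fat against control was -0.68 for Epcam, -0.40 for Krt7, -0.48 for Prom1 and -0.10 for Spp1, and high protein against control was 0.00102 for Cftr, 0.00171 for Prom1 and 0.0384 for Spp1. In limma-voom, high protein against control was 0.0286 for Cftr, 0.36 for Krt7, 0.23 for Prom1 and 0.0134 for Spp1, and low protein against control was 0.59 for Epcam, 0.32 for Krt19, 1.03 for Krt7, 0.22 for Prom1 and 0.16 for Spp1. The cause of these turns was not tested beyond the kidney values given.

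Leaving out 1 library at a time gave 0 to 1 genes for any diet (1 without high-protein 3), 0 to 19 for high protein against low fat (19 without control 4, 1 without high-protein 3), 0 to 2 for high protein against low protein (2 without high-protein 3), 0 to 109 for low fat against control (109 without control 3) and 454 to 1220 for the kidney level (454 without control 3). Of the 7, 3 to 5 were called with the kidney level, Spp1 being lost without control 3 (0.27, adjusted p 0.225) and Cftr gained without high-protein 1 (0.73, adjusted p 0.00888), high-protein 3 (0.49, adjusted p 0.0449) or control 4 (0.44, adjusted p 0.0469); without control 3 Cftr was 0.31 (adjusted p 0.9998). High protein against control then ranged -1.11 to 0.94 for Cftr, -1.05 to 0.48 for Epcam, -0.98 to 1.06 for Krt7, -1.04 to 0.82 for Prom1, -0.46 to 0.58 for Spp1, -0.20 to 0.37 for Krt19 and -0.41 to 0.013 for Sox9. Low protein against control ranged -0.16 to 1.85 for Cftr, -0.84 to 0.69 for Epcam, -0.84 to 1.17 for Krt7, -1.20 to 0.33 for Prom1, -0.47 to 0.57 for Spp1 and -0.53 to 0.0377 for Krt19. Low fat against control ranged -0.0621 to 1.48 for Epcam, -0.00983 to 0.56 for Krt19, -0.0465 to 1.99 for Krt7, -0.16 to 1.39 for Prom1, 0.58 to 2.7 for Cftr and 0.11 to 1.17 for Spp1. The highest value came without control 3 in each of these except the Krt19 and Sox9 ranges, which had it without control 4. The kidney coefficient of Sox9 ranged -0.16 to 0.0584.

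The replicate numbers were not treated as pairs. Of 24 pairs with the same number, 8 had deviations correlated over 0.1 and 4 under -0.1, with r between -0.201 and 0.301. Of 16 libraries, 6 correlated best with their own number. Pairs with different numbers were not set beside these, so the values do not settle whether the samples are paired. A fit with the replicate block called 0 genes in each diet comparison, and low protein against control was then 0.23 for Krt7 and 0.00986 for Spp1. With the block, 729 genes and 5 of the 7 were called for the kidney level, Cftr at 0.65 (adjusted p 0.0431). Depth limits Cftr most, and the wide spread of the controls limits every comparison with them.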

Other observations

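Other liver cell types were read in the same diet fit, and 0 of their markers passed the edgeR test in any diet comparison. Of the 8 Kupffer cell markers, the smallest unadjusted p-values were those of Folr2 (low fat against control, log2 fold change 0.80, SE 0.28, edgeR adjusted p 0.53) and Adgre1 (0.62, SE 0.22, adjusted p 0.53). Fold changes against control were above 0 for 8 of the 8 on low fat, 8 on high protein and 7 on low protein. The shares of all tested genes above 0 were 47.6%, 41.7% and 45.6% in that order. Control 4 had the lowest summed Kupffer level of all libraries, 154.1 CPM. Among 10 markers of recruited macrophages, which make Spp1 as ducts do, Lyz2 had 0.60 (SE 0.19, low fat against control, edgeR adjusted p 0.53) and Cd9 had -1.03 (SE 0.38, high protein against control, edgeR adjusted p 0.762). Of the 10, 8 had fold changes above 0 in each comparison with control, with a median log2 fold change of 0.43 on high protein, 0.26 on low protein and 0.41 on low fat. Of all tested genes, 41.7%, 45.6% and 47.6% were above 0 in the same order. The summed level of that list ran from 58.0 to 69.1 CPM in high-protein livers, 58.0 to 71.7 CPM in low-protein livers, 61.5 to 82.5 CPM in low-fat livers and 54.0 to 66.8 CPM in controls.

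Among stellate and fibroblast markers, Pdgfrb (-0.48, SE 0.16) and Acta2 (-0.98, SE 0.41) had the smallest p-values, both in high protein against low fat, with edgeR adjusted p-values of 0.469 and 0.531. Hepatocyte markers Ass1, of the urea cycle, and Tat, of tyrosine breakdown, had log2 fold changes of -1.12 (SE 0.31, low protein against control, edgeR adjusted p 0.682) and -3.02 (SE 0.86, low fat against control, adjusted p 0.53). The endothelial genes Vwf and Lyve1 had -0.96 (SE 0.42) and -1.32 (SE 0.59) in low protein against control, with an edgeR adjusted p of 0.682 for both. The highest level in any library was 21330 CPM for Tat, 9956 for Ass1, 30.48 for Vwf and 24.99 for Lyve1. Their medians over all libraries were 962.2, 3142, 7.254 and 3.924 CPM in that order. Control 4 had the highest summed hepatocyte and endothelial levels, 144000 and 282.7 CPM. Its part in the fold changes of Ass1, Tat, Vwf and Lyve1 was not tested. The foremost mesothelial genes were Muc16 (-1.85, SE 0.96, high protein against low protein, edgeR adjusted p 0.96) and Lrrn4 (-1.35, SE 0.70, high protein against control, adjusted p 0.762). Lgals4 (1.21, SE 0.36, high protein against control, edgeR adjusted p 0.762) and Fabp2 (0.89, SE 0.33, low protein against control, adjusted p 0.682) led the intestinal list, and Cela2a (-0.86, SE 0.32, low fat against control, edgeR adjusted p 0.53) and Cela1 (-0.38, SE 0.41, high protein against low fat, adjusted p 0.78) the pancreatic list. Of the kidney list, Aqp2 and Hsd11b2 had -1.64 (SE 1.02) and -1.65 (SE 1.03) in high protein against low fat, with edgeR adjusted p-values of 0.612 and 0.614. Among its proximal tubule genes Slc13a3 had -0.67 (SE 0.44, edgeR adjusted p 0.626) and Napsa -1.46 (SE 1.02, adjusted p 0.647) in that contrast.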
